A study of Mus musculus with 6 samples.

Results

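The 10 genes described here are markers of muscle satellite cells, the resident stem cells of skeletal muscle, measured in bulk RNA sequencing of synovial fibroblasts. They are Pax7, Myf5, Myod1, Calcr, Fgfr4, Megf10, Cdh15, Itga7, Chodl and Des, found by symbol among the 24348 genes of the count table. All 10 passed the filter of at least 10 counts in at least 3 libraries, as did 19925 genes of the table. The list was selected on the IC against vehicle contrast of these same libraries, in which Myf5 and other muscle genes had already been seen to be low after IC, so the differences between the groups are given below as a description of these genes and carry no weight as a test.

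The study injected adult C57BL/6 mice intravenously with preformed immune complexes (IC), made from ovalbumin and rabbit antibodies against it, or with vehicle. Fibroblasts were then sorted by flow cytometry from collagenase-digested synovium, the tissue that lines the joint. There were 3 libraries of total RNA depleted of ribosomal RNA in each group, and no genetic alteration was named for either group. The quadriceps muscle was removed before the synovium was dissected, per the methods of the study. The gate of the sort, the time between injection and sampling, and whether each library came from 1 mouse were not given in the sources used here, so the spread between replicates may be partly technical.

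Satellite cells lie between a muscle fibre and its basement membrane, where the paired-box factor Pax7 marks them and most of them are quiescent in resting muscle. After injury they switch on the basic helix-loop-helix factors Myf5 and Myod1, divide as myoblasts, and then express Myog as they differentiate and fuse into fibres. They are not synovial fibroblasts, although muscle and its connective tissue lie next to the joint capsule. Several of their genes, such as Itga7 and Des, are also expressed by pericytes and smooth muscle.

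Myf5 and Myod1 bind the E-box, CANNTG, as dimers with E proteins, so the windows upstream of the members were searched for it. RefSeq start sites (GRCm38.p6) gave 8 windows of 250 bases for 7 of the 10 genes, namely Des, Pax7, Calcr, Cdh15, Myf5, Fgfr4 and Chodl. The 3 windows that overlapped no annotated exon are printed to show how much members differ in this motif. They run 5′ to 3′ on the strand of the gene and end at the base before the start site, with every E-box in capitals. They are chr1:75360042-75360291 on the plus strand for Des, chr10:107486135-107486384 on the minus strand for Myf5, and chr16:78930698-78930947 on the plus strand for Chodl.
Des: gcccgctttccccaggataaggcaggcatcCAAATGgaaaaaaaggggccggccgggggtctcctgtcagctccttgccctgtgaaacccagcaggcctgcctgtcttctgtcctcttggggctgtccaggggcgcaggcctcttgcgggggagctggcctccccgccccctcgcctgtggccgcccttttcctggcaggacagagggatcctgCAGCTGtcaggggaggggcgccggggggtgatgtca
Myf5: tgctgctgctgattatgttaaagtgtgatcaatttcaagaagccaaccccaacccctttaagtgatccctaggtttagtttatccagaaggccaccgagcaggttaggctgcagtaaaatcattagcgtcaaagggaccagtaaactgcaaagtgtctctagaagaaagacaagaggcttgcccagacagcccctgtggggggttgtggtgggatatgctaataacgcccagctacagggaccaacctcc
Chodl: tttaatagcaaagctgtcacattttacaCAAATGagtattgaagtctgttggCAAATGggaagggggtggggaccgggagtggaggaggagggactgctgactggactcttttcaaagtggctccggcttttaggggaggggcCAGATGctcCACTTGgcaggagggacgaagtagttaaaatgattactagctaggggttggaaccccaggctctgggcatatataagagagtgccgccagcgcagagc
The Des window held 2 E-boxes, 220 and 36 bases before the start site, and the nearer of them was CAGCTG. The Chodl window held 4, from 222 to 98 bases before the start site, and the Myf5 window held none. Among the 7 genes with a window, 5 had an E-box in a window. Calcr had a window with an E-box and a window without, so this count by gene is not comparable with a share of windows. CANNTG reads the same on both strands, takes in CAGCTG and CACGTG, and was present in 66.2% of the 32851 mouse windows of this length, against 13% for CAGCTG and 6.02% for CACGTG. A match is a string of letters and not a binding site, and the absence of one says nothing of the factor.

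The libraries held between 40114331 and 56714304 counts, and the DESeq2 size factors used to normalize them lay between 0.8224 and 1.22. Genes that mark fibroblasts summed to between 69901 and 85864 CPM, the counts scaled to the total of the library. Of 10 leukocyte genes that were listed, the count table held 5, which summed to between 24.1 and 37.3 CPM. The leukocyte genes Ptprc, Adgre1, Itgam, Cd163 and Tyrobp were not among the counted genes, so this sum leaves them out. The 10 satellite cell genes together took 146.5, 114.6 and 80.0 CPM in IC replicates 1, 2 and 3 and 256.1, 286.1 and 186.1 CPM in vehicle replicates 1, 2 and 3. The 3 IC sums lay below the 3 vehicle sums, at 114 ± 33.3 against 243 ± 51.3 CPM (mean ± SD, n = 3 per group). In bulk RNA, fewer satellite cells in the sorted sample and less of these transcripts per cell cannot be told apart.

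Every one of the 10 genes was lower in all 3 IC libraries than in all 3 vehicle libraries, a pattern that 7.67% of the tested genes showed. The median log2 fold change of the members was −1.56 for IC against vehicle, beside −0.0019 over all tested genes. With DESeq2 at an adjusted p under 0.05, 4 of the 10 were called lower, namely Megf10, Myf5, Chodl and Itga7, and none was called higher. Over all tested genes the same rule called 1.07% lower and 1.03% higher, and nothing is read from the comparison because the contrast chose the genes. edgeR's quasi-likelihood test called Megf10 alone, where it called 0.125% of the tested genes lower. All 10 members had an unadjusted p under 0.05 by either tool, as did 9.8% of all tested genes by DESeq2 and 9.64% by edgeR, in either direction. Leaving out 1 library at a time moved the DESeq2 count between 2 of 10, without vehicle replicate 2, and 8 of 10, without IC replicate 1. Megf10 and Chodl were called in each of these 6 fits, whereas the adjusted p of Myf5 rose to 0.292 without IC replicate 2 and 0.345 without vehicle replicate 2, and that of Itga7 to 0.0741 without IC replicate 3 and 0.0781 without vehicle replicate 2 (DESeq2).

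**Figure D1:**
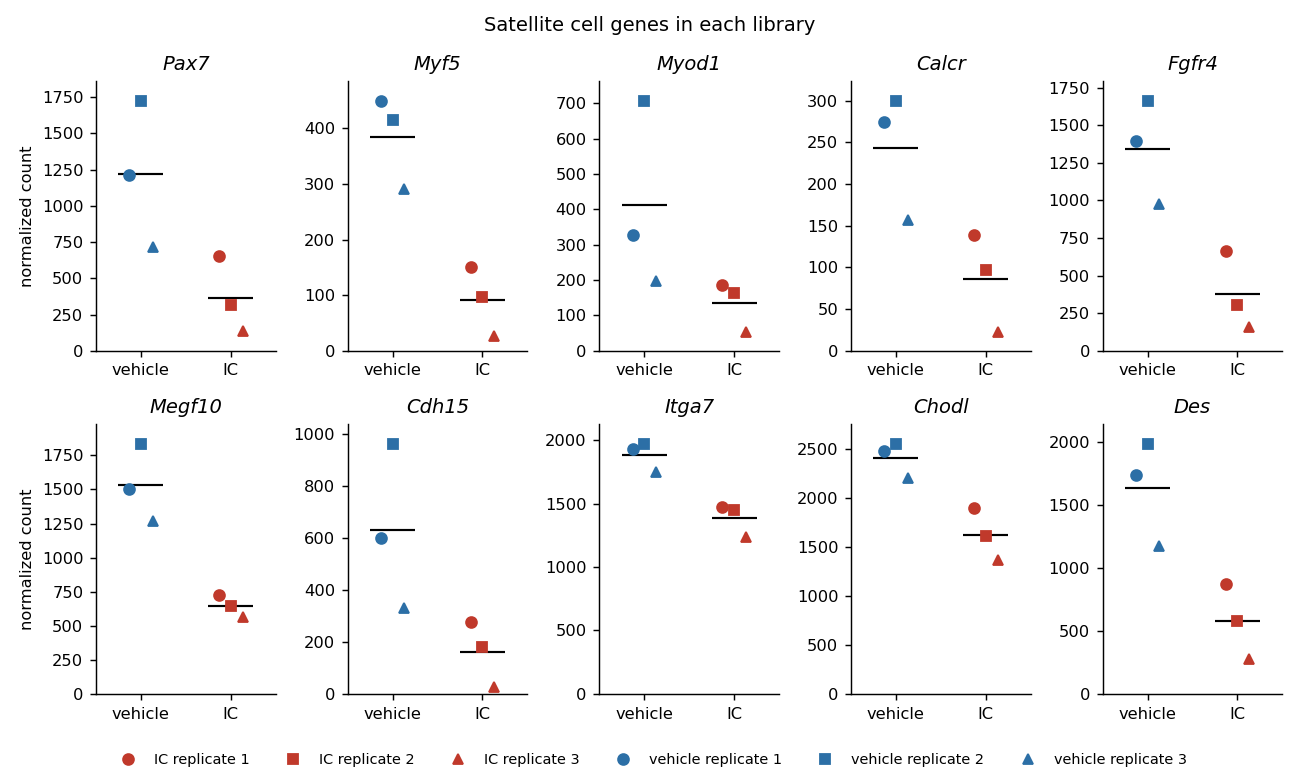
Normalized counts (linear axes from 0) of the 10 genes in each library, with vehicle in blue, IC in red, the replicate number as the symbol and the group mean as a bar. In all 10 panels the IC points lie below the vehicle points, IC replicate 3 is the lowest of the 6 and vehicle replicate 3 is the lowest of its group.

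Values below are counts divided by the size factor of the library, listed for replicates 1, 2 and 3 of each group, and means carry the SD of 3 libraries. Pax7 (chr4:139737062-139833528, GRCm38), the factor that defines satellite cells, was at 651.2, 314.2 and 135.3 after IC and at 1210, 1724 and 717.4 after vehicle. The groups did not overlap, but IC replicate 1 came close to vehicle replicate 3, and the 95% counting intervals of these 2 values overlapped. The means were 366.9 ± 262 and 1217 ± 503.3, and the log2 fold change was −1.73 (standard error, SE, 0.69). Myf5 (chr10:107482908-107486134), the first of the myogenic factors to be expressed in the embryo, was at 151.0, 97.2 and 26.0 after IC against 449.3, 415.6 and 290.6 after vehicle. It had the lowest log2 fold change of the 10, at −2.08 (SE 0.42), and its vehicle libraries lay closer together than those of Pax7. Myod1 (chr7:46376474-46379099), the factor of activated satellite cells and myoblasts, was at 186.2, 163.3 and 52.9 after IC and 328.0, 706.6 and 198.2 after vehicle. The gap between its groups was narrow and the counting intervals of IC replicate 1 and vehicle replicate 3 overlapped, while vehicle replicate 2 stood well above the other libraries. Its log2 fold change was −1.62 (SE 0.72).

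Among the receptors, Calcr (chr6:3685680-3764714), the calcitonin receptor that marks quiescent satellite cells, was at 138.8, 97.2 and 22.4 after IC and 273.9, 299.4 and 156.9 after vehicle. IC replicate 3 rested on 25 counts, with a 95% Poisson interval of 16.2 to 36.9 that covers counting error only. The log2 fold change was −1.50 (SE 0.47), and the intervals of the highest IC and lowest vehicle value overlapped. Fgfr4 (chr13:55152640-55168759), a receptor for fibroblast growth factors carried by satellite cells and myoblasts, was at 661.2, 303.9 and 159.5 after IC and 1395, 1661 and 975.2 after vehicle, with a log2 fold change of −1.84 (SE 0.61). Its order of libraries was that of Pax7, and its groups were further apart than those of Pax7. Megf10 (chr18:57133090-57297467), a receptor with epidermal growth factor repeats that acts in satellite cell proliferation, was at 725.1, 643.9 and 567.2 after IC and 1502, 1832 and 1272 after vehicle. Its IC libraries lay within a narrow band, so that a smaller log2 fold change, −1.25, had an SE of only 0.16.

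Among the adhesion and surface genes, Cdh15 (chr8:122847966-122867397), the muscle cadherin between satellite cell and fibre, was at 278.8, 180.9 and 26.0 after IC and 600.2, 961.6 and 330.7 after vehicle. It varied most within the IC group, the highest library being 10.7 times the lowest, and its log2 fold change of −1.96 had the largest SE of the 10, 0.93. Itga7 (chr10:128933818-128958282), the alpha chain of a laminin receptor of satellite cells, muscle fibres and smooth muscle, was at 1470, 1453 and 1240 after IC and 1933, 1968 and 1752 after vehicle. Its groups were separate and tight, and its log2 fold change was the nearest to 0 of the 10, at −0.44 (SE 0.12). Chodl (chr16:78930948-78951733), which encodes the C-type lectin-like membrane protein chondrolectin, was at 1898, 1607 and 1367 after IC and 2477, 2547 and 2207 after vehicle, with a log2 fold change of −0.57 (SE 0.13). Counting intervals at the gap between the groups were apart for Itga7 and Chodl and overlapped for Cdh15.

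Des (chr1:75360329-75368579), the intermediate filament desmin of muscle cells, satellite cells and pericytes, was at 877.1, 577.8 and 276.0 after IC and 1739, 1986 and 1178 after vehicle. Its groups did not overlap and its means were 577 ± 301 and 1635 ± 414, a log2 fold change of −1.50 (SE 0.51). Exons of Des and Itga7 overlap annotated genes on the opposite strand, Gm15179 and Mettl7b, that are not among the counted genes, and whether reads were counted by strand was not given in the sources used here. Over the 10 genes the counting intervals at the gap were apart for 6 and overlapped for 4, namely Pax7, Myod1, Calcr and Cdh15.

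**Figure D2:**
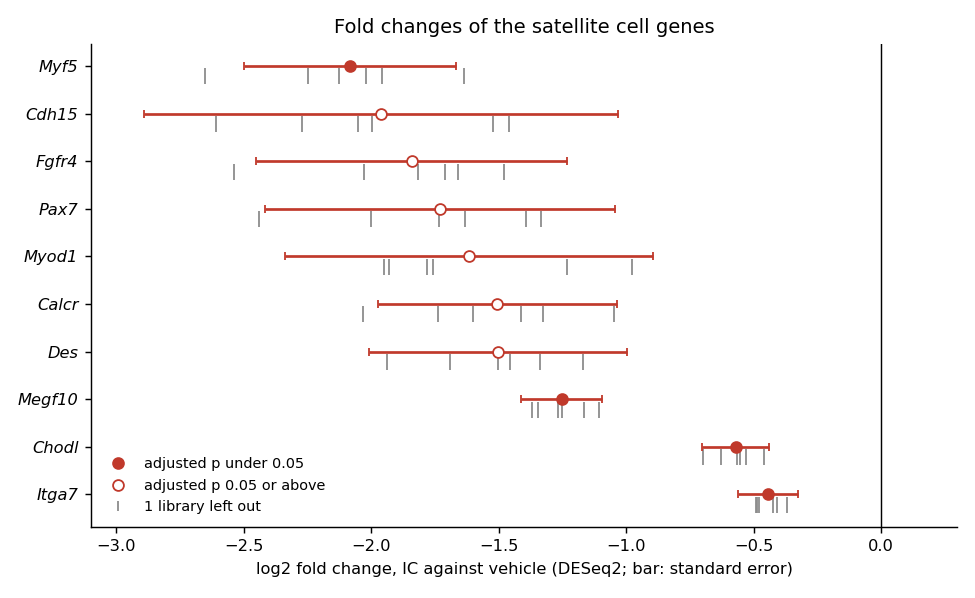
DESeq2 log2 fold change of IC against vehicle (horizontal axis) for each gene, with its standard error as a bar, filled where the adjusted p over all tested genes was under 0.05, and grey ticks for the fits that leave out 1 library. All points and ticks lie below 0, the points running from −2.08 for Myf5 to −0.44 for Itga7, and the genes with the shortest bars are Itga7, Chodl and Megf10.

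The 10 genes also shared an order of libraries within each group, which the contrast between groups did not set. Within the IC group, replicate 1 was the highest and replicate 3 the lowest for all 10 genes. Within the vehicle group, replicate 3 was the lowest for all 10 and replicate 2 the highest for 9, the exception being Myf5, which was highest in replicate 1. Over the 45 pairs of members, the correlation of deviations from the group means on the log2 scale had a median of 0.934 over the 6 libraries. It ranged from 0.675 for Myf5 with Megf10 to 0.995 for Chodl with Fgfr4. These correlations are descriptions over 6 libraries that share their depth and composition across genes. The share of all tested genes with the same orders, and the correlation between genes outside the list, were not computed. Whether the orders belong to the members or to the libraries was therefore not tested. The total was highest in IC replicate 3, at 54025183 counts, and lowest in IC replicate 1, at 43577433, the reverse of the order of the members. Among the vehicle libraries replicate 3 had the lowest total, 40114331 counts, as well as the lowest values of all 10 members, and Myf5 followed the order of the totals. The part of depth in these orders was not tested.

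The size of this swing separated the members. The value in IC replicate 1 was 3.18 times that in IC replicate 3 for Des, 3.52 times for Myod1 and 4.15 times for Fgfr4. It was 4.81 times for Pax7, 5.81 times for Myf5, 6.20 times for Calcr and 10.7 times for Cdh15. It was only 1.39 times for Chodl, 1.28 times for Megf10 and 1.19 times for Itga7, a split of 7 and 3 genes made after the values were seen. The split rests on the IC group. Among the vehicle libraries the highest was 1.44 times the lowest for Megf10, beside 1.55 for Myf5, 1.69 for Des and 1.70 for Fgfr4. The widest swings also rest on few counts in IC replicate 3, 29 for Cdh15 and for Myf5 and 25 for Calcr.

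Each gene was also set against Pax7 in the same library, as a ratio of normalized counts. The ratio of Fgfr4 to Pax7 was 1.05 ± 0.11 after IC and 1.16 ± 0.198 after vehicle, and that of Calcr to Pax7 was 0.229 ± 0.0732 and 0.206 ± 0.0284. The ratio was 0.399 ± 0.117 and 0.319 ± 0.0787 for Myod1, and 0.399 ± 0.194 and 0.505 ± 0.049 for Cdh15. These differences lay within the sum of the group SDs, as did those of Myf5, at 0.244 ± 0.0596 and 0.339 ± 0.0866, and Des, at 1.74 ± 0.357 and 1.41 ± 0.246. For Chodl the ratio ranged from 2.91 to 10.1 over the IC libraries and from 1.48 to 3.08 over the vehicle libraries, and for Itga7 from 2.26 to 9.17 and from 1.14 to 2.44. For Megf10 it ranged from 1.11 to 4.19 after IC and from 1.06 to 1.77 after vehicle. Mean ratios after IC and vehicle were 6.0 ± 3.7 and 2.2 ± 0.81 for Chodl and 5.3 ± 3.5 and 1.7 ± 0.66 for Itga7. For Megf10 they were 2.5 ± 1.6 and 1.4 ± 0.37. These differences too lay within the sum of the group SDs, so this measure does not set Chodl, Itga7 and Megf10 apart from the genes of wide swing.

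A straight line of each gene on Pax7 was drawn over the 6 libraries of both groups together, so that its slope and intercept carry the contrast by which the genes were selected and serve as a description. The intercept is the level of the line where Pax7 reads 0. It was 1416 (SE 135) normalized counts for Chodl and 1272 (SE 91.7) for Itga7, or 58.8% and 67.5% of their vehicle means. It was 422 (SE 131) for Megf10, 27.5% of the vehicle mean, and 231 (SE 110) for Des, 14.1%. It was 73.3 (SE 102) for Fgfr4, 26.7 (SE 20.4) for Calcr and 23.5 (SE 56.6) for Myf5. For Myod1 and Cdh15 it was −21.6 (SE 59.0) and −52.6 (SE 31.5). The ranges of 1 SE around the intercepts of Des and Fgfr4 overlapped.

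**Figure D3:**
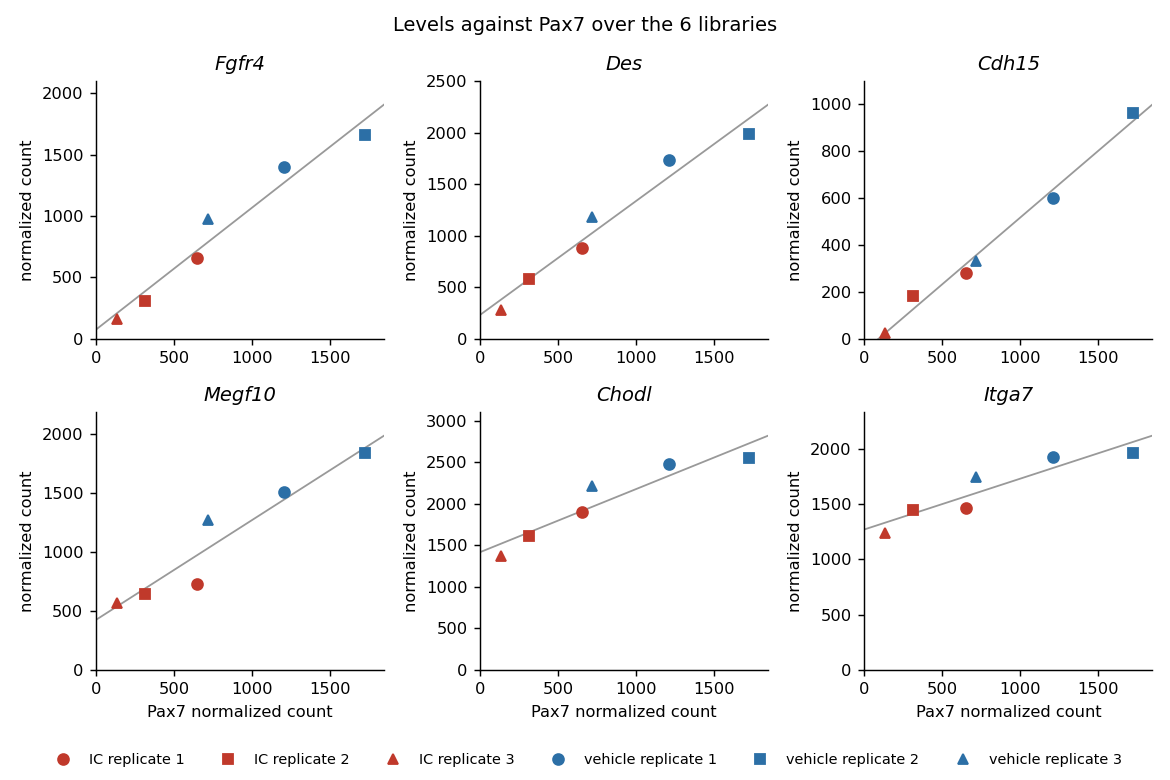
Normalized count of 6 genes (vertical axes) against that of Pax7 (horizontal axis) in the 6 libraries, vehicle in blue and IC in red, with the fitted straight line. The lines of Fgfr4 and Cdh15 start near 0, that of Des at 231 (SE 110), that of Megf10 at 422 (SE 131), and those of Chodl and Itga7 at 1416 and 1272.

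Levels were compared between genes as CPM per kilobase of annotated exon. In vehicle libraries the levels per length were highest for Chodl at 9.12 ± 0.774, Des at 9.05 ± 2.29 and Fgfr4 at 7.88 ± 2.00, and these 3 did not differ beyond their SDs. Itga7 followed at 4.84 ± 0.359, Myod1 at 4.56 ± 2.84, Pax7 at 4.31 ± 1.73, Megf10 at 4.13 ± 0.72, Cdh15 at 4.02 ± 1.96 and Myf5 at 3.85 ± 0.906, again with no neighbours apart beyond their SDs. Calcr was lowest at 1.29 ± 0.409. After IC, Chodl stood alone at 6.17 ± 1.03 CPM per kilobase, above Itga7 at 3.58 ± 0.357. Des at 3.21 ± 1.67 and Fgfr4 at 2.21 ± 1.52 came next, then Megf10 at 1.74 ± 0.22 and Myod1 at 1.51 ± 0.805. Pax7 was at 1.31 ± 0.931, Cdh15 at 1.04 ± 0.818, Myf5 at 0.917 ± 0.628 and Calcr at 0.460 ± 0.315, and from Itga7 down each gene lay within the SDs of its neighbour in this order.

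Among the 8 genes outside the list whose log2 normalized counts followed the mean z-score of the members most closely were Cd82, Drp2, Chrdl2, Stmn2, Edn3, Ncoa7 and Asb5. The Pearson correlations of the 8 over the 6 libraries were between 0.990 and 0.998, the highest of 15121 candidates whose normalized counts averaged 50 or more. Being picked for that likeness, they are named as a description. Cd82, which encodes a tetraspanin, was at 801.1, 654.3 and 393.4 after IC and 1438, 1688 and 1120 after vehicle. Chrdl2, a chordin-like antagonist of bone morphogenetic proteins, was at 160.9, 70.3 and 17.0 after IC and 457.5, 601.7 and 268.7 after vehicle, with a swing over the IC libraries wider than that of Calcr and narrower than that of Cdh15. Edn3, an endothelin ligand, was at 175.2, 131.3 and 68.1 against 437.9, 567.7 and 263.9. Asb5, an ankyrin-repeat protein of muscle, was at 271.1, 160.2 and 63.6 against 890.5, 752.8 and 430.4. Ncoa7 and Stmn2 followed the order of the members with small differences, with log2 fold changes of −0.12 (SE 0.09) and −0.35 (SE 0.28).

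Of 17 further genes used as markers of satellite cells or of their quiescence, many of them also expressed by other stromal cells, 15 were tested. DESeq2 called 5 lower and none higher, against 1.07% and 1.03% of all tested genes, and the median log2 fold change was −0.30. The 5 were Vcam1, Cxcr4, Ncam1, Dag1 and Tenm4. Tenm4, a teneurin adhesion protein, was at 682.1, 852.7 and 758.1 after IC and 1803, 1650 and 1139 after vehicle, with a log2 fold change of −1.003 (SE 0.17, adjusted p 1.47e-06 by DESeq2 and 0.0488 by edgeR). Its IC order was not that of the members, because replicate 1 was the lowest. Ncam1, the neural cell adhesion molecule, was at 2064 ± 187 after IC and 3330 ± 629 after vehicle, and Vcam1, an adhesion molecule of satellite cells and activated stroma, at 4008 ± 95.7 and 5379 ± 590, with DESeq2 adjusted p of 5.31e-05 and 0.00146. The dystroglycan gene Dag1 was at 13248 ± 541 and 17806 ± 2324 (DESeq2 adjusted p 0.000851). Cxcr4, the chemokine receptor, was at 222 ± 138 and 502 ± 164 and its call (DESeq2 adjusted p 0.0305) held only where IC replicate 1 was the library left out, the adjusted p reaching 0.7135 in the other 5 fits. The other 4 genes were called in all 6 of these fits. edgeR called Tenm4 alone of the 15, where it called 0.125% of all tested genes lower. The most abundant gene of the list, Cd34, was at 54141 ± 5080 and 61554 ± 6520 and was not called.

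Myog and Myf6, the myogenic factors of differentiation, were too low to be tested. Myog had 5, 0 and 0 counts after IC and 8, 9 and 118 after vehicle, and Myf6 had 7, 0 and 3 against 2, 0 and 0. Thus Pax7, Myf5 and Myod1 were read in every library while Myog was near 0 in all but vehicle replicate 3. Of 17 tested genes of myogenic differentiation and the neuromuscular junction, none was called by DESeq2 or by edgeR. An unadjusted p under 0.05 was reached by 5 with DESeq2 and 4 with edgeR, all lower. The shares over all tested genes, in either direction, were 9.8% and 9.64%. The IC values lay wholly below the vehicle values for 5 of the 17, a pattern of 7.67% of all tested genes, and wholly above for 1. The log2 fold change was below 0 for 12 and above 0 for 5. DESeq2 gave 4 of the 17 no adjusted p. The median log2 fold change of the list was −0.08, and its most abundant gene, Id3, an inhibitor of helix-loop-helix factors that many cells express, was at 19134 ± 858 and 17472 ± 1168.

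Of 24 tested genes of the mature muscle fibre, DESeq2 called 6 lower and none higher, against 1.07% and 1.03% of all tested genes. The median log2 fold change was −1.64. edgeR called none, and 15 by DESeq2 and 14 by edgeR had an unadjusted p under 0.05, against the shares of 9.8% and 9.64% over all genes. The IC values lay wholly below the vehicle values for 6 of the 24, a pattern that 7.67% of all tested genes showed. The 6 called by DESeq2 were Myh1, Myl1, Ttn, Neb, Actn3 and Actn2, which encode myosin chains, titin, nebulin and the actinins of the sarcomere. Of these called genes, Myh1 overlapped between the groups, at 26.9 in IC replicate 2 and 23.1 in vehicle replicate 3. The giant spring protein gene Ttn was at 571.9, 386.6 and 319.9 after IC and 1001, 1332 and 605.5 after vehicle (log2 fold change −1.20, SE 0.25, DESeq2 adjusted p 0.000391). Actn3 was at 56.2, 61.0 and 36.7 against 134.5, 204.0 and 122.8. Without vehicle replicate 2 none of the 24 was called by DESeq2, while 2 were if vehicle replicate 1 was left out, 3 if IC replicate 2 was, and 10 if vehicle replicate 3 was. The most abundant gene, Tnnt3, was at 739 ± 225 and 820 ± 77.6 and was not called. Summed over the 25 genes in the table, the fibre genes took 53.4, 40.2 and 26.5 CPM in IC replicates 1 to 3 and 94.3, 125 and 48.5 CPM in vehicle replicates 1 to 3, the same order of libraries within each group as the sum of the members. Unlike the sum of the members, the fibre sum overlapped between the groups, vehicle replicate 3 lying below IC replicate 1. Their part in the differences of the satellite cell genes was not tested.

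Known partners of the members were read as a list of 32 genes, among them the integrin chain Itgb1 and laminins for Itga7, the Ramp proteins and collagen V for Calcr, growth factor ligands for Fgfr4, catenins for Cdh15, filament partners of desmin, and the E proteins and their Id inhibitors. Of 28 tested, none was called by DESeq2 or edgeR, and the median log2 fold change was −0.06. By each tool 6 had an unadjusted p under 0.05, against 9.8% of all tested genes by DESeq2 and 9.64% by edgeR. The most abundant partner, the collagen V chain Col5a1, was at 127153 ± 3071 after IC and 140884 ± 15796 after vehicle. Without vehicle replicate 1, 4 of the 28 were called by DESeq2, 2 were without IC replicate 1 and 1 was without vehicle replicate 2.

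Markers of other cells that a sort could hold were read beside the members. The DESeq2 shares over all tested genes, 1.07% called lower and 1.03% called higher, stand beside each of these lists. Of 12 pericyte and smooth muscle genes, 9 had a log2 fold change below 0, with a median of −0.33, and 1 was called, Myh11, the smooth muscle myosin, lower at 437 ± 227 against 852 ± 83.6 (DESeq2 adjusted p 0.0131). The Myh11 call held only without IC replicate 1, with an adjusted p of up to 0.374 without any other library. The smooth muscle actin Acta2 was at 728 ± 156 and 1119 ± 362.5 and was not called. The list summed to between 950.5 and 1063 CPM after IC and between 997 and 1060 CPM after vehicle. Its most abundant gene, the receptor gene Pdgfrb, stood at 21722 ± 77.7 and 20318 ± 1337 normalized counts. The sum therefore gives little weight to less abundant genes such as Myh11 and Acta2, and does not show that the pericyte and smooth muscle content was constant.

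The 10 endothelial genes summed to between 218 and 296 CPM after IC and between 298.5 and 353 CPM after vehicle. DESeq2 called 3 lower, Kdr, Cdh5 and Cldn5, where it called 1.07% of all tested genes lower. The median log2 fold change of the 10 was −0.48, and 9 of the 10 were below 0. The most abundant of the 10, the angiopoietin receptor gene Tek, was at 6330 ± 450 and 6639 ± 325. Kdr, a receptor for vascular endothelial growth factor, was at 1386 ± 212 against 2255 ± 224 (DESeq2 adjusted p 3.45e-05), and it was called in each fit that left out 1 library, whereas Cdh5 held its call only without IC replicate 1 and Cldn5 only without IC replicate 2, with adjusted p of up to 0.2455 and 0.415 in the other fits. Schwann cell genes summed to between 81.8 and 166 CPM after IC and between 136 and 173 CPM after vehicle, and only Ngfr, a neurotrophin receptor, was called, lower at 1115 ± 328 against 3931 ± 1678 (adjusted p 0.0025 by DESeq2 and 0.0338 by edgeR), in each of the 6 fits. edgeR called none of the endothelial, pericyte and smooth muscle or fibroblast genes, with an adjusted p of 0.0537 for Kdr, 0.237 for Myh11 and 0.0541 for Prg4.

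The 12 cell cycle genes summed to between 127 and 164.5 CPM after IC and between 122 and 197 CPM after vehicle. Their most abundant gene, the replication clamp Pcna, was at 5435 ± 145 and 5231 ± 112, and the most abundant leukocyte gene, Cd68, at 1308 ± 227 and 1243 ± 115. None of these 12, nor of the 5 leukocyte genes, was called by DESeq2 or edgeR, and 1 cell cycle gene had an unadjusted p under 0.05 by DESeq2 and none by edgeR. No leukocyte gene did so by either tool. Of 12 fibroblast genes, the most abundant was Gsn, the actin-severing gelsolin, at 1208789 ± 34661 and 1338465 ± 195839 normalized counts, and Col3a1 and Lum were called lower and Prg4, the lubricin gene of the lining layer, higher, at 20768 ± 2989 after IC and 10842 ± 2821 after vehicle (DESeq2 adjusted p 0.0103). Without vehicle replicate 3 none of these 3 was called by DESeq2, and over the 6 fits with 1 library left out the adjusted p reached 0.173 for Col3a1, 0.0751 for Lum and 0.155 for Prg4. None of the marker genes in the table was at 0 in all 6 libraries. The part of endothelial, nerve and pericyte RNA in the differences of the satellite cell genes was not tested.

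**Figure D4:**
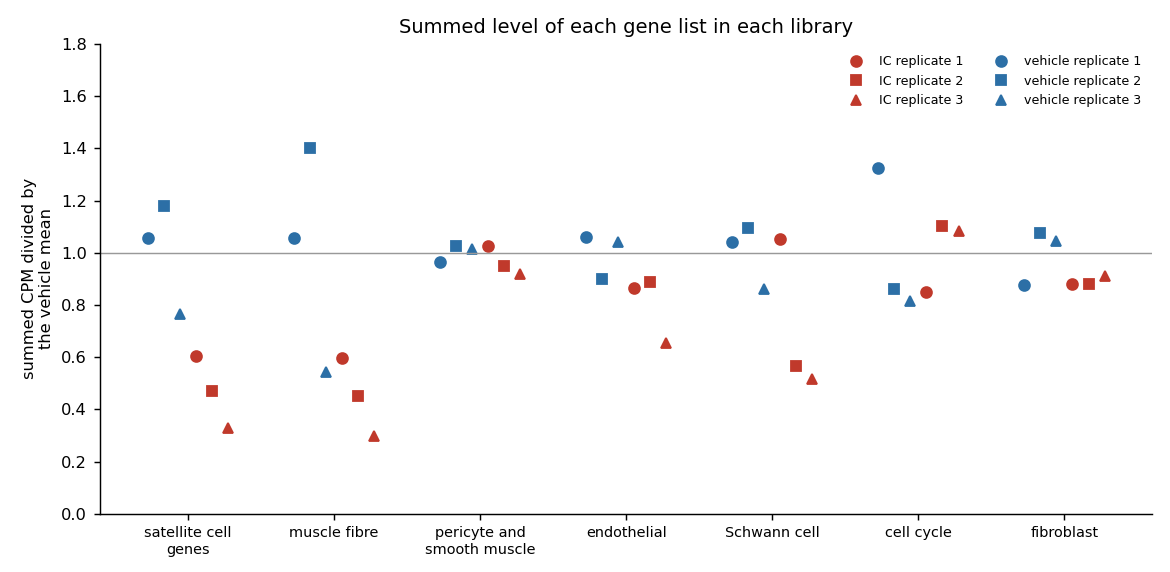
Summed CPM of each gene list in each library, divided by the mean of the vehicle libraries (linear axis from 0), vehicle in blue and IC in red. The satellite cell and muscle fibre sums are spread widely, with all IC libraries of the satellite cell genes below all vehicle libraries, while the pericyte and smooth muscle sums, in which Pdgfrb is the most abundant gene, lie close to 1 in all 6.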

How the data were processed

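Per the labels and the study's methods, reads were trimmed with Trim Galore, aligned to mm10 with HISAT2 and counted per gene with featureCounts, and the authors deposited raw counts for 6 libraries. Tool versions, annotation and strand setting are not given in the sources used here, and labels and methods name different library kits. The counts were fitted with DESeq2 1.42.0 (R 4.3.3), the tool of the study, by group alone, after a filter of at least 10 counts in at least 3 libraries, at an adjusted p of 0.05. The study also names sva without a number of surrogate variables, so it was run as an alternative with 1. DESeq2 gave no adjusted p to 3870 of 19925 tested genes. Alternatives were edgeR 4.0.16, limma-voom (limma 3.58.1), TMM and total-count scaling, no count filter, Cook's cutoff and independent filtering off, sva 3.50.0, a replicate block, and leaving out each library. The fits were tested on simulated data. Coordinates and exon lengths came from GENCODE M21 (GRCm38).

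The members and all lists were chosen with earlier results of these data known. Genes were named by a rule: all members, the called genes of each other list (at most 6) and its most abundant gene, Myog, Myf6, and the 8 genes most like the members, of which 1 is not reported here. Counting intervals are exact Poisson intervals at 95% and cover counting error only.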

Additional observations from a re-analysis of the deposited data

How the results depend on the processing

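The fold changes of the 10 members stayed below 0 under every alternative run. DESeq2 called 419 genes in all, edgeR 37, limma-voom 62, and leaving out 1 library gave 281 to 677 (677 without vehicle replicate 1). Of the members, 4 were called by DESeq2, 1 by edgeR (Megf10), 2 by limma-voom (Megf10 and Fgfr4) and 2 to 8 with 1 library left out. The same 4 were called under TMM and total-count scaling, and Myf5 was not with 1 surrogate variable. Replicate numbers do not pair the libraries, with correlations of same-numbered deviations of −0.166, −0.155 and −0.00823 over 15131 genes. Under the replicate block there were 320 calls by DESeq2, all 10 members among them, and edgeR with the block, chosen after seeing the data, called 22 genes and 2 members (Megf10 and Des). The further satellite cell markers, 5 by DESeq2, gave 1 with edgeR, 1 with limma-voom and 0 with the edgeR block. The fibre genes, 6 by DESeq2, gave 0 with edgeR, limma-voom and the edgeR block, and 0 to 10 with 1 library left out. The differentiation genes, 0 by DESeq2, gave 1 with total-count scaling, without the count filter and without independent filtering, 2 under the block and 0 to 1 with 1 library left out. The partners, 0 by DESeq2, gave 1 with total-count scaling and with 1 surrogate variable, and 0 to 4 with 1 library left out. The summed members took 114 CPM after IC and 243 CPM after vehicle. Without Des and Itga7 they took 72.7 and 169.7 CPM, and without Chodl, Megf10 and Itga7, a set chosen after seeing the data, 37.4 and 121.7 CPM. Leaving out 1 library gave 97.3 to 130.6 CPM and 221.1 to 271.1 CPM. The cause of these changes was not tested. DESeq2 gave no adjusted p to 9 of the 24 fibre genes and 4 of the 17 differentiation genes.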

Other observations

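Vehicle replicate 3 was the lowest vehicle library for all 10 satellite cell genes, yet it held most of the counts of 3 genes of differentiating myocytes, a feature picked out after the values were seen. Myog, the factor of myogenic differentiation, had 118 counts there against 0 to 9 in the other 5 libraries. Mymk, the fusion protein myomaker, had 23 against 0 to 7. Actc1, the actin of embryonic and heart muscle, had 53 counts there, 11 and 12 in the other vehicle libraries and 0 in each IC library. A bound on the upper side alone allows up to 3 counts of Actc1 over the whole IC group. Other genes of the same list did not share this. Myh3, the embryonic myosin, had 9 counts there against 29 and 10 in vehicle replicates 1 and 2. Divided by the size factor, these were 10.9 against 23.8 and 9.45. Normalized in the same way, Chrna1, a subunit of the acetylcholine receptor, was at 175.1 there against 224.7 and 165.3. Rapsn, which clusters that receptor, was at 91.2 against 66.4 and 162.5. Pax3, the paralog of Pax7, had 9, 0 and 0 counts after IC and 2, 18 and 13 after vehicle.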
